A study of Mus musculus with 4 samples.

Results

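Collagen-rich spots were the top 5% of spots by a fibrillar collagen score in each of the 2 kidney sections of Uox_KO mice. They numbered 132 of the 2650 spots of Uox_KO 1 and 129 of the 2590 spots of Uox_KO 2, which is 261 of 5240 Uox_KO spots and of 11130 spots in the series. The spots were selected on 4 transcripts: Col1a1 and Col1a2, the chains of type I collagen, Col3a1, the chain of type III collagen, and Mmp2, a gelatinase of fibroblasts. In each spot the UMIs (counts of distinct RNA molecules) of each gene were divided by the spot's UMIs outside mitochondrially encoded genes, multiplied by 10000 and passed through ln(1 + x), and the 4 values were added. The share of spots taken was therefore fixed by the choice, and the 4 genes are left out of every test below.

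Fibrillar collagens are made mainly by fibroblasts and by the contractile myofibroblasts that arise in scarring tissue, and in a healthy kidney they are found in small amounts between the tubules and in larger amounts around arteries, in the capsule and under the urothelium. The secreted chains are hydroxylated, trimmed, cross-linked and laid down together with proteoglycans, elastic microfibrils and adhesive glycoproteins. TGF-beta is the best known inducer of this programme in the kidney, and macrophages often lie in the same places.

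The samples were Visium sections of fresh frozen kidney, cut at 10 µm, from male mice on the C57BL/6J background. Uox_KO mice lack a working gene for urate oxidase, the enzyme that breaks down uric acid in mice, and are titled as a hyperuricemia model, and the other animals carry the genotype label Control. There were 2 sections in each genotype, each from a mouse of its own by its title, and the age of the mice is not given in the sources used here. A Visium spot is a small region of tissue that can hold several cells of different types, and the files used here hold no spot positions, so whether a collagen-rich spot lay between tubules, around an artery or under the capsule or urothelium was not tested. Uox itself had 0 UMIs in each of the 4 sections, which allows at most 0.0278 to 0.0557 CPM (counts scaled to a common section total) per section, so it does not check the labels. Between 1861 and 2539 spot barcodes were shared by each pair of sections, as slides carry the same barcode grid.

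Promoters could be read from RefSeq (build GRCm38.p6) for 2 of the 4 genes used for the score, and that of Fndc1, the gene with the largest rise among called genes averaging at least 10 CPM, is shown with them, to set the score's own genes beside the gene that followed them most steeply. Each is the 250 bases before the annotated start, written 5′ to 3′ on the gene's own strand, with capitals at every match on either strand to 3 core promoter motifs. The letters searched were CCAAT for the binding site of nuclear factor Y, TATAAA for the site of the TATA-binding protein and GGGCGG for the site of Sp1, and no matches overlapped. The windows are chr1:45311288-45311537 on the plus strand for Col3a1, chr6:4505368-4505617 on the plus strand for Col1a2 and chr17:7827303-7827552 on the minus strand for Fndc1.
Col3a1: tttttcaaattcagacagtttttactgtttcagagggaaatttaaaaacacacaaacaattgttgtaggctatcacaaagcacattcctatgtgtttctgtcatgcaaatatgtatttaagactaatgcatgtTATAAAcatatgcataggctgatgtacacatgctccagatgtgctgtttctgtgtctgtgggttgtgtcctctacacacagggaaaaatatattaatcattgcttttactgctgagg
Col1a2: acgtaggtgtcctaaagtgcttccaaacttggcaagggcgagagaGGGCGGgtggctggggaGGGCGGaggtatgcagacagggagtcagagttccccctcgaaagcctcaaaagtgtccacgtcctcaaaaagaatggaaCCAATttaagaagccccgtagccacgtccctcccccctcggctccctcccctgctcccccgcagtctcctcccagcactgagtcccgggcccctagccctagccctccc
Fndc1: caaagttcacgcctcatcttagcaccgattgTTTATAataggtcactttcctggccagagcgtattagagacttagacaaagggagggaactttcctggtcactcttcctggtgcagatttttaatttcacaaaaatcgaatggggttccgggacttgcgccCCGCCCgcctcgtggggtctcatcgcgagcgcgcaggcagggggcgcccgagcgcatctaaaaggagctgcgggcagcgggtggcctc
In Col3a1, the only match was TATAAA, 117 bases before the start. Col1a2 held CCAAT 109 bases before its start and GGGCGG at 205 and at 188 bases. Fndc1 held both of its matches on the reverse strand, TATAAA at 219 bases and GGGCGG at 88 bases. Among all 32851 promoters of the table, 33.9% held CCAAT, 12.4% TATAAA and 32.7% GGGCGG on either strand. Of 69 matrix genes listed, 50 matched the table with 64 promoters, of which 29.7% held CCAAT, 15.6% TATAAA and 56.2% GGGCGG. These matches describe letters in the windows and nothing about the factors that bind them.

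The limit that the top 5% set was a score of 9.09 in Uox_KO 1 and 8.77 in Uox_KO 2. The lowest chosen spot of Uox_KO 1 scored 9.086 and the highest spot left out 9.072. In Uox_KO 2 these were 8.769 and 8.768, so the limit cuts through a continuous range of scores and not through a gap. The median score was 9.87 and 9.82 in the collagen-rich spots of Uox_KO 1 and 2, against 4.16 and 3.33 in the other spots of the same sections. The same top 5% in Control gave 126 of 2528 and 168 of 3362 spots, with limits of only 1.60 and 1.52. No Control spot reached either Uox_KO limit, the highest Control scores being 5.04 and 4.32. Conversely, 89.7 to 90.7% of Uox_KO 1 spots and 82.1 to 84.1% of Uox_KO 2 spots reached the Control limits. Collagen-rich spots of Uox_KO are thus the upper end of a shift that spans most of the section, and the top 5% of Control is a comparison group with far less collagen.

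**Figure D1:**
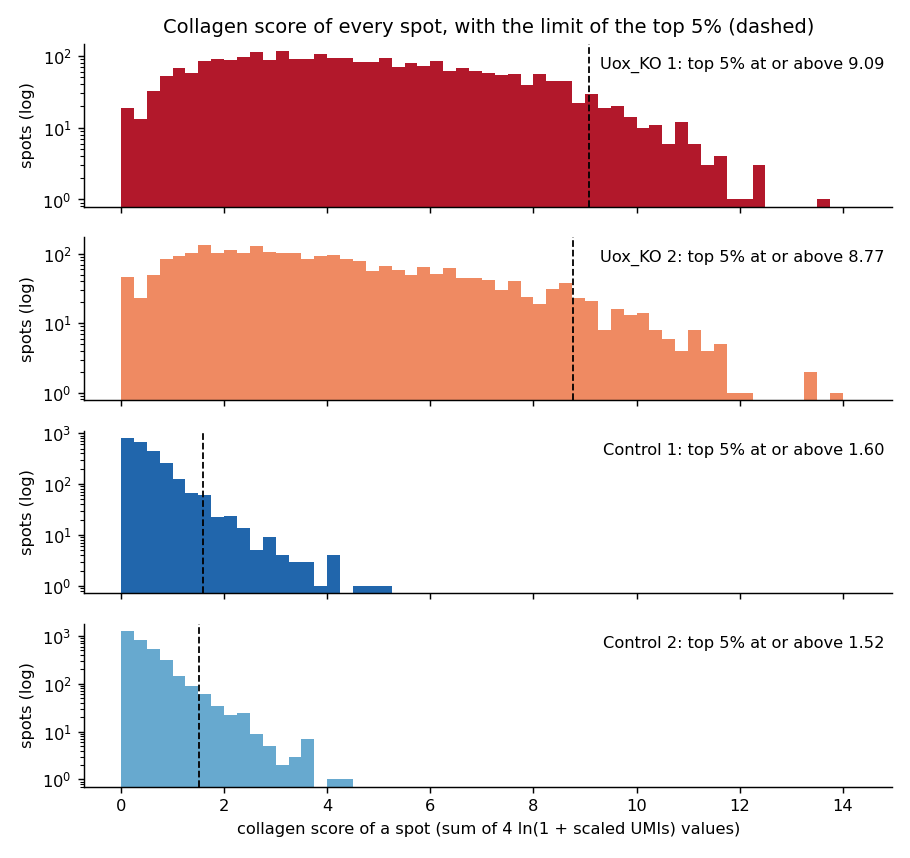
Histograms of the collagen score (x axis, sum of 4 ln values) of all spots in each section, with the number of spots on a log y axis and a dashed line at the limit of the top 5%. The limits lie at 9.09 and 8.77 in the Uox_KO sections and at 1.60 and 1.52 in the Control sections, and the highest Control spots score 5.04 and 4.32.

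The genes used to choose the spots are given as description only. Col1a1 made up 1711 and 1731 CPM of the summed UMIs of collagen-rich spots in Uox_KO 1 and 2, against 264 and 208 CPM in the other spots. Col3a1 stood at 1896 and 1663 CPM in collagen-rich spots, against 251 and 173 CPM in the others. Mmp2 was the sparsest of the 4, with a median of 2 UMIs per collagen-rich spot in both sections, against 0 in the other spots. With 3.03% and 3.23% of their sections' UMIs, the collagen-rich spots held 16.8% and 21.7% of the Col1a1 UMIs and 19.1% and 24.3% of the Col3a1 UMIs, so most collagen RNA of a Uox_KO section lay outside them. Over the spots of a section, the ln values of Col1a1 and Col1a2 had a Pearson correlation of 0.743 (2650 spots) and 0.735 (2590 spots) in Uox_KO, against 0.274 (2528 spots) and 0.239 (3362 spots) in Control. These correlations are descriptions, since spots share their section and a correlation is lower where counts are sparser, as they are in Control.

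Collagen-rich spots were shallower than the rest of their sections. Their median depth was 10742 and 10369 UMIs per spot in Uox_KO 1 and 2, against 17241 and 20078 UMIs in the other spots. With the section's spots split into 5 equal depth classes from the fewest to the most UMIs, the collagen-rich spots numbered 40, 35, 45, 9 and 3 in Uox_KO 1 and 47, 36, 25, 14 and 7 in Uox_KO 2. In Control the top 5% were shifted further, with 95 and 107 spots in the lowest class. The sums tested held 1633782 and 1850583 UMIs in collagen-rich spots, against 52263729 and 55379934 UMIs in the other Uox_KO spots. Whether the lower depth had a part in a result was tested once, by choosing the top 5% within each depth class.

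**Figure D2:**
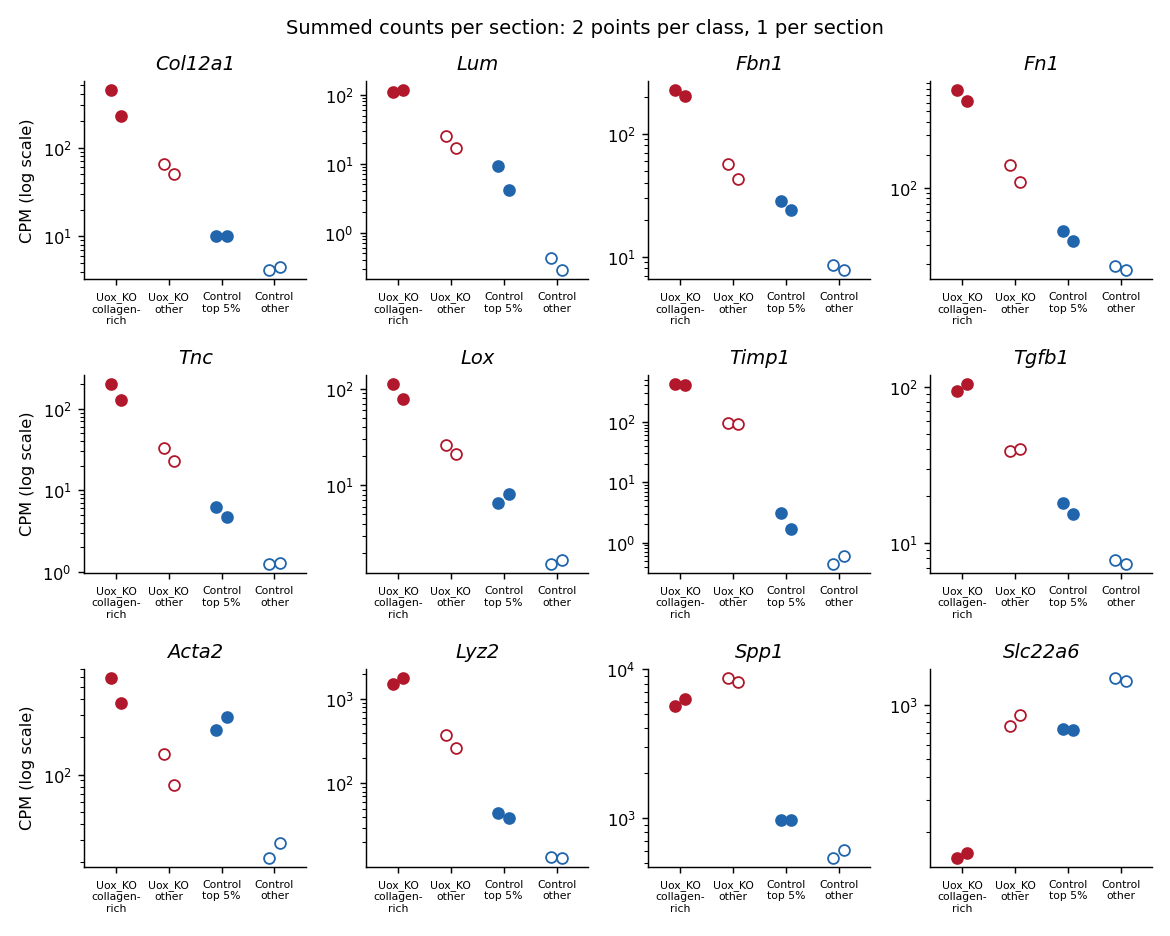
Level of 12 genes (CPM of summed UMIs, log y axes) in the collagen-rich and other spots of Uox_KO and in the top 5% and other spots of Control, with 1 point per section. For 10 of them, such as Fn1 at 782 and 621 CPM, both collagen-rich sums lie above both sums of the other Uox_KO spots, and for Spp1 and Slc22a6 both lie below.

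The rest of the extracellular matrix programme was higher with the 4 genes. UMIs were summed per section over collagen-rich spots and over all other spots, and the 2 sums were compared within each Uox_KO section with edgeR's quasi-likelihood F test, a section term and Benjamini-Hochberg adjustment over all genes tested (threshold 0.05). Over all 15955 genes tested, 3849 (24.1%) were higher and 3659 (22.9%) lower in collagen-rich spots, with a median log2 fold change of 0.06. Of 22 other collagens, 17 rose and 3 fell, with a median of 1.59. Col12a1, a collagen that decorates fibrils, had 444 and 226 CPM in the collagen-rich spots of Uox_KO 1 and 2, against 66.0 and 49.9 CPM in the other spots. Both collagen-rich sums were several times above both other sums, and the log2 fold change was 2.49 ± 0.08 (SE of the fit, 2 sections, edgeR adjusted p = 7.89e-32). Col15a1, a collagen of the zone beneath basement membranes, stood at 473 and 483 CPM, against 145 and 122 CPM in the other spots (1.84 ± 0.06). The fibril-nucleating chains of type V collagen rose too, Col5a1 by a log2 fold change of 2.27 and Col5a2 by 1.92. The 3 that fell were Col4a3 (-0.78) and Col4a4 (-0.49), chains of the collagen network of glomerular and some tubular basement membranes, and Col27a1 (-0.62).

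The molecules that space, coat and bind collagen fibrils rose alongside. Of 9 small leucine-rich proteoglycans, 8 rose and 0 fell (median 1.81), with Aspn not called at 3.32 and 4.45 CPM, against 2.80 and 2.40 CPM in the other spots. Decorin (Dcn), which binds collagen and TGF-beta, had 644 and 366 CPM in the collagen-rich spots, against 151 and 94.7 CPM in the other spots. Its log2 fold change was 2.02 ± 0.06, and lumican (Lum) and fibromodulin (Fmod), which regulate fibril diameter, reached 2.48 and 2.60. All 15 elastic fibre and microfibril genes tested rose (median 1.69). Elastin itself (Eln) had 87.8 and 157 CPM in collagen-rich spots, against 24.1 and 22.5 CPM in the other spots, and the microfibril glycoprotein gene Mfap5 had 209 and 101 CPM, against 27.9 and 13.5 CPM. Both genes had collagen-rich sums well above the others in each section, though the order of the 2 sections was opposite for Eln and Mfap5. The log2 fold changes were 2.38 ± 0.13 for Eln and 2.90 ± 0.11 for Mfap5.

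Of 19 matricellular and adhesive glycoproteins, 17 rose and 1 fell (median 1.70). Fibronectin (Fn1), the scaffold on which collagen fibrils assemble, had 782 and 621 CPM in collagen-rich spots, against 162 and 112 CPM in the other spots. The log2 fold change of 2.37 ± 0.06 had the smallest p of the list (edgeR adjusted p = 2.51e-35). Tenascin C (Tnc), a glycoprotein of remodelling tissue, had 203 and 128 CPM, against 33.3 and 22.9 CPM in the other spots, and periostin (Postn) 64.6 and 39.7 CPM, against 17.1 and 13.8 CPM. The member that fell was Spp1 (osteopontin), which injured tubules and macrophages secrete: it had 5666 and 6286 CPM in collagen-rich spots, against 8770 and 8211 CPM in the other spots, a log2 fold change of -0.51 ± 0.08. Spp1 was lower in both sections, but within depth classes it turned to 0.20 (edgeR adjusted p = 0.074). It also had at least 1 UMI in nearly every spot, 132 of 132 and 129 of 129 collagen-rich spots, against 2516 of 2518 and 2460 of 2461 other spots.

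Enzymes that process, cross-link and degrade the matrix were raised as a group. Of 22 processing and cross-linking enzymes 16 rose and 1 fell (median 1.34). Lysyl oxidase (Lox), which starts the cross-links between collagen chains, had 113 and 77.7 CPM in collagen-rich spots, against 26.2 and 21.1 CPM in the other spots (2.00 ± 0.12), and the collagen chaperone gene Serpinh1 had 619 and 612 CPM, against 280 and 258 CPM (1.20 ± 0.06). The one that fell was P4hb, a general protein disulphide isomerase of the endoplasmic reticulum, by 0.23. Of 24 tested matrix proteases and inhibitors 19 rose and 1 fell (median 1.53), and Mmp10 was not tested, with 0 UMIs in the collagen-rich spots. Timp1, an inhibitor of matrix metalloproteinases, had 425 and 405 CPM in collagen-rich spots, against 95.7 and 92.4 CPM in the others (2.14 ± 0.07). Proteases rose with their inhibitor: Mmp12, the elastase of macrophages, had 19.9 and 44.1 CPM, against 4.57 and 5.03 CPM, and Mmp3 had 19.0 and 37.7 CPM, against 5.18 and 4.60 CPM. Timp3, another inhibitor, fell by 0.36. Mmp14, which activates Mmp2, was sparse at 7.60 and 6.88 CPM, against 3.83 and 2.65 CPM, and its rise of 1.18 was called here. The call was lost with DESeq2 (DESeq2 adjusted p = 0.060) and without the fat, urothelium and smooth muscle spots (edgeR adjusted p = 0.057). It was also lost without Uox_KO 2, where the rise was 0.91. Of 14 basement membrane genes 12 rose and 0 fell, by less (median 0.89).

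**Figure D3:**
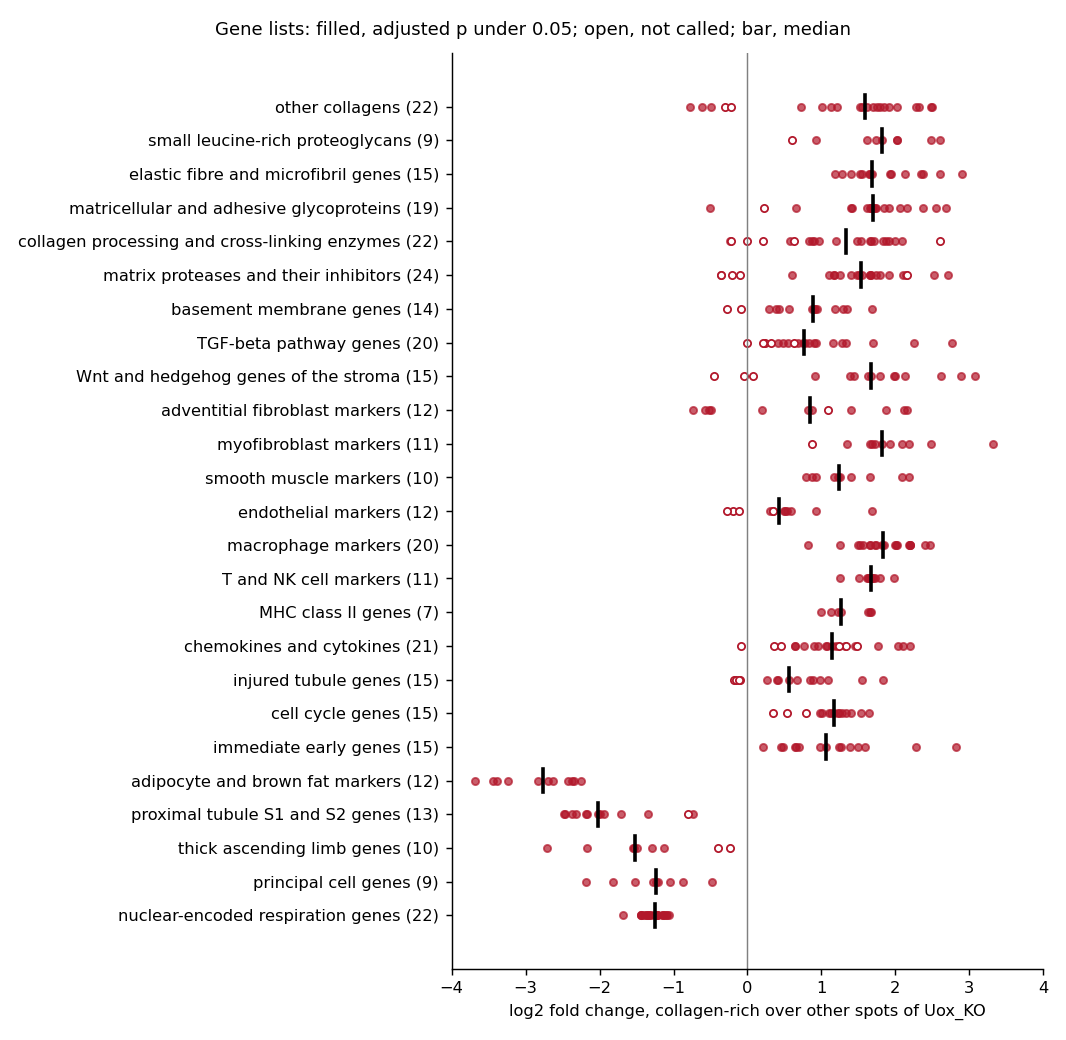
Log2 fold change of collagen-rich over other spots within Uox_KO (x axis) for the tested genes of 25 lists (rows, number tested in brackets), with filled points for edgeR adjusted p under 0.05, open points for genes not called and a bar at the median. The first 6 rows lie to the right with medians of 1.34 to 1.81 and macrophage markers at 1.83, and the fat, nephron and respiration rows lie to the left; 2 genes that were not called lie beyond the axis.

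Signals that act on fibroblasts were part of the pattern. Of 20 TGF-beta pathway genes 15 rose and 0 fell (median 0.77). The ligand gene Tgfb1 had 94.0 and 104 CPM in collagen-rich spots, against 39.0 and 40.0 CPM in the other spots (1.33 ± 0.10), and Tgfb3, sparser, had 23.7 and 13.0 CPM, against 4.65 and 2.96 CPM (2.25 ± 0.25). Inhba, the activin A subunit, had 33.2 and 15.0 CPM, against 4.17 and 2.73 CPM (2.76 ± 0.25). The target genes Tgfbi and Pmepa1 rose by 1.69 and 1.16 on the log2 scale. Smad2, Smad6, Bambi, Smurf2 and Bmp4 were not called. Of 20 PDGF, FGF and IGF signalling genes 12 rose and 1 fell (median 0.90), among them the fibroblast receptor gene Pdgfra (107 and 85.0 CPM, against 30.6 and 27.1 CPM in the other spots). Of 15 Wnt and hedgehog genes of the stroma 12 rose and 0 fell (median 1.66), and they included secreted Wnt antagonists: Frzb had 159 and 99.6 CPM in collagen-rich spots, against 47.2 and 35.3 CPM in the others, and Sfrp4 had 17.6 and 25.5 CPM, against 3.30 and 2.59 CPM.

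The label of fibrotic spots was read against cell markers, and markers of myofibroblasts, macrophages and T cells all rose in them. Of 11 tested myofibroblast markers 10 rose and 0 fell (median 1.82), with Comp not called and Lrrc15 not tested. Acta2, smooth muscle actin, had 598 and 371 CPM in collagen-rich spots, against 147 and 83.0 CPM in the other spots (2.09 ± 0.06). Cthrc1, a secreted marker of activated fibroblasts, had the largest log2 fold change of the list, 3.32 ± 0.49, at only 7.12 and 5.67 CPM, against 0.874 and 0.429 CPM. Since vessel walls also express Acta2, the 10 smooth muscle markers were read with it: all 10 rose (median 1.23), and 28 of the 132 and 44 of the 129 collagen-rich spots (21.2% and 34.1%) were also in the top 5% of a smooth muscle score. Within depth classes 6 of those 10 rose, and 8 did after the top 10% of spots by fat, urothelium and smooth muscle scores were left out. Of 12 adventitial fibroblast markers 7 rose and 4 fell (median 0.84). Pi16, Dpt, Cd248 and Clec3b, markers of fibroblasts around large vessels, rose by 2.16, 2.12, 1.40 and 1.88, and Sema3c, Ly6a, Ackr3 and Dpp4 fell (-0.74, -0.52, -0.58 and -0.50). Pi16 had 163 and 171 CPM in collagen-rich spots, against 42.6 and 33.0 CPM in the other spots. In sums over spots, fewer or more cells of a type and less or more RNA per cell cannot be told apart.

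Immune transcripts were the other large component. All 20 macrophage markers rose (median 1.83). Lyz2, the lysozyme of macrophages and other myeloid cells, had 1509 and 1785 CPM in collagen-rich spots, against 373 and 262 CPM in the other spots (2.40 ± 0.08). The complement gene C1qa, made by resident macrophages, had 678 and 581 CPM, against 210 and 150 CPM (1.82 ± 0.06). The macrophage markers summed to 4466 and 4855 CPM in collagen-rich spots, against 1369 and 1019 CPM in the other Uox_KO spots and 217 and 183 CPM in the top 5% of Control. All 11 tested markers of T and NK cells rose (median 1.67), at lower levels, with Cd3d at 22.3 and 21.1 CPM, against 5.68 and 5.28 CPM, although 7 of the 11 passed without Uox_KO 2. All 7 genes of MHC class II rose (median 1.26), and of 21 chemokines and cytokines 15 rose and 0 fell (median 1.14). Cxcl12, the chemokine of stromal cells, had 439 and 247 CPM in collagen-rich spots, against 146 and 101 CPM in the others. Of 12 tested complement genes 10 rose and 2 fell, and Serping1, the C1 inhibitor, was among the rises (1.99). Of 8 B and plasma cell markers 4 rose, and here the sections differed: Igkc had 142 and 18.2 CPM in collagen-rich spots, against 30.0 and 23.1 CPM in the other spots, so it was higher in Uox_KO 1 alone, and Jchain had 18.5 and 1.62 CPM, against 4.57 and 3.06 CPM. Within depth classes 2 of 7 tested B and plasma cell markers rose. Neutrophil and mast cell markers were sparse, with 4 of 10 not tested and 1 of 6 rising. They summed to 24.7 and 21.1 CPM in collagen-rich spots, against 12.2 and 15.4 CPM in the other spots.

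Collagen-rich spots were not all of 1 kind. In Uox_KO 1 and 2, 38 and 45 of them (28.8% and 34.9%) were also among the top 5% by a macrophage score, and 27 and 22 by a T cell score. An endothelial score took 18 and 16 of them, a urothelium score 13 and 10, a podocyte score 9 and 12 and an injured tubule score 8 and 12. The podocyte (6.8% and 9.3%) and injured tubule overlaps (6.1% and 9.3%) were not far above the 5% share over all spots. In the Control top 5% the podocyte (32.5% and 22.6%), injured tubule (25.4% and 18.5%), endothelial and smooth muscle overlaps were larger. The macrophage (25.4% and 21.4%), T cell and urothelium overlaps were smaller there. Fat scores shared 0 and 1 spots with them and proximal tubule scores 0 and 0. In 39 and 24 collagen-rich spots none of the 9 other scores was in its top 5%. Only 7 and 10 collagen-rich spots were in the smooth muscle and the macrophage set at once, so most spots of each set were not in the other.

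**Figure D4:**
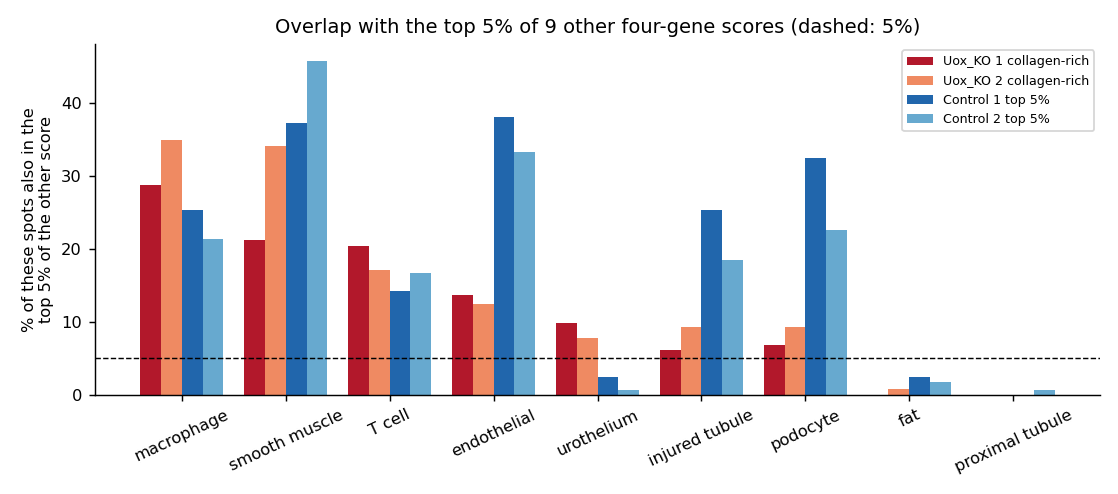
Share of the collagen-rich spots of the 2 Uox_KO sections and of the top 5% of the 2 Control sections (y axis, percent) that are also in the top 5% of 9 other four-gene scores (x axis), with a dashed line at 5%. Macrophage and smooth muscle scores shared the most spots in Uox_KO, 28.8 and 34.9% and 21.2 and 34.1%, and fat and proximal tubule scores shared 0 or 1 spot in each Uox_KO section.

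Markers of other tissue that a spot could hold were read in the same way. Of 12 endothelial markers 8 rose and 0 fell, with a median of only 0.42. Within depth classes 0 rose and 3 fell (median -0.09), where 3103 of all 16076 genes tested rose and 3824 fell. Pecam1, an adhesion molecule between endothelial cells, had 47.0 and 40.9 CPM in collagen-rich spots, against 30.5 and 30.1 CPM in the other spots. Of 9 pericyte and mesangial markers 6 rose and 1 fell (median 0.90), and of 7 lymphatic markers 5 rose and 0 fell (median 1.46), 3 within depth classes (median 0.49). Urothelium markers summed to 146 and 45.3 CPM in collagen-rich spots, against 143 and 99.2 CPM in the others, and 1 of 10 rose and 3 fell, against 0 and 6 within depth classes. Of 7 tested nerve markers 2 rose, and of 4 tested markers of mesothelium and capsule 1 rose and 1 fell. Within depth classes 1 nerve marker rose, and 0 mesothelium and capsule markers rose and 2 fell. Red blood cell genes fell for 4 of 5, and for 0 of 5 in the fit without the section term. The 15 interferon response genes included 12 that rose (median 0.72).

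Nephron transcripts were lower, with differences between segments. Of 13 genes of the proximal tubule segments S1 and S2, 0 rose and 12 fell (median -2.02), and of 10 genes of segment S3, 0 rose and 9 fell (median -2.18). Slc22a6, the organic anion transporter, had 144 and 153 CPM in collagen-rich spots, against 763 and 881 CPM in the other spots (-2.47 ± 0.09). Of 10 thick ascending limb genes 7 fell, led by Egf with 21.8 and 15.4 CPM in collagen-rich spots, against 110 and 130 CPM in the others. Of 10 distal convoluted and connecting tubule genes 7 fell and 0 rose (median -1.63), as did 5 of 8 intercalated cell genes. All 9 principal cell genes fell (median -1.23), Aqp2, the vasopressin-regulated water channel, by 2.18. The thin limb and inner medulla genes were mixed, with 4 higher and 2 lower of 8: Slc14a2, the urea transporter of the inner medulla, had 81.7 and 9.72 CPM, against 15.3 and 4.52 CPM, and Aqp1 fell by 1.18. Podocyte genes were mixed in another way: 7 of 10 rose, led by Nes and Synpo (1.28 and 1.26), while the slit diaphragm gene Nphs1, named after its values were seen, was not called (0.18 ± 0.45), at 2.85 and 3.24 CPM in collagen-rich spots, against 2.20 and 3.14 CPM in the other spots. Without Uox_KO 2, 4 of the 10 podocyte genes rose, and within depth classes 3 rose and 2 fell (median -0.18).

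Genes of energy metabolism were lower as well. All 22 nuclear-encoded respiration genes fell (median -1.25), Uqcrfs1, an iron-sulphur subunit of complex III, having 185 and 171 CPM in collagen-rich spots, against 551 and 585 CPM in the others (-1.68 ± 0.08). All 13 mitochondrially encoded genes fell (median -1.81), and such transcripts made up 6.52% and 6.45% of the UMIs of collagen-rich spots, against 14.5% and 17.7% in the other spots. Leaving them out of the fit kept 17 of 22 other collagens and 20 of 20 macrophage markers higher.

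Most genes of tubular injury rose. Of 15 injured tubule genes 11 rose and 0 fell, with a median of 0.56, and within depth classes 13 rose and 2 fell. Vim, which scarred stroma also expresses, had the largest rise among the named ones (1.84), and Lcn2, secreted by injured tubules, had 232 and 200 CPM in collagen-rich spots, against 114 and 88.6 CPM in the others (1.09 ± 0.07). Havcr1 (Kim-1), the marker of injured proximal tubule, named after its values were seen, had 61.7 and 113 CPM in collagen-rich spots, against 93.0 and 106 CPM in the other spots, and was not called (-0.19 ± 0.10, edgeR adjusted p = 0.11). Its value turned with the choice of spots, to 1.12 within depth classes and to -1.36 with the top 2.5% of spots, both called (edgeR adjusted p = 3.98e-11 and 6.06e-18). Of 15 cell cycle genes 12 rose (median 1.17), Mki67 having 36.1 and 40.5 CPM, against 15.3 and 15.2 CPM, with 7 of 15 passing without Uox_KO 2. All 15 immediate early genes rose (median 1.07), and 7 did without Uox_KO 2.

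Along the score itself, matrix and macrophage genes thinned out gradually below the limit, and the injury genes Spp1 and Havcr1 followed another course. These bins describe the choice of spots and carry no test. In Uox_KO 1, Col12a1 stood at 841, 318, 281, 187, 95.0 and 25.9 CPM in the top 2.5%, the next 2.5%, and the ranks 5 to 10%, 10 to 20%, 20 to 50% and 50 to 100%. Uox_KO 2 gave 360, 248, 238, 133, 64.5 and 18.8 CPM. For this gene the spots just below the limit thus had levels near those just above it, and the upper 2.5% stood out more in Uox_KO 1. Lyz2 had 2461 and 3316 CPM in the top 2.5% of Uox_KO 1 and 2, against 137 and 97.9 CPM in the lower 50%. Spp1 was highest in ranks 20 to 50% of Uox_KO 1 (11994 CPM) and 10 to 20% of Uox_KO 2 (11532 CPM), so its peak lay outside the collagen-rich spots. Havcr1 had 59.2 and 46.0 CPM in the top 2.5%, against 98.8 and 247 CPM in the next 2.5%, and 58.4 and 61.6 CPM in the lower 50%. The highest Havcr1 bin was ranks 20 to 50% in Uox_KO 1 (154 CPM) and the second 2.5% in Uox_KO 2, so the sections differed in where the gene was highest.

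**Figure D5:**
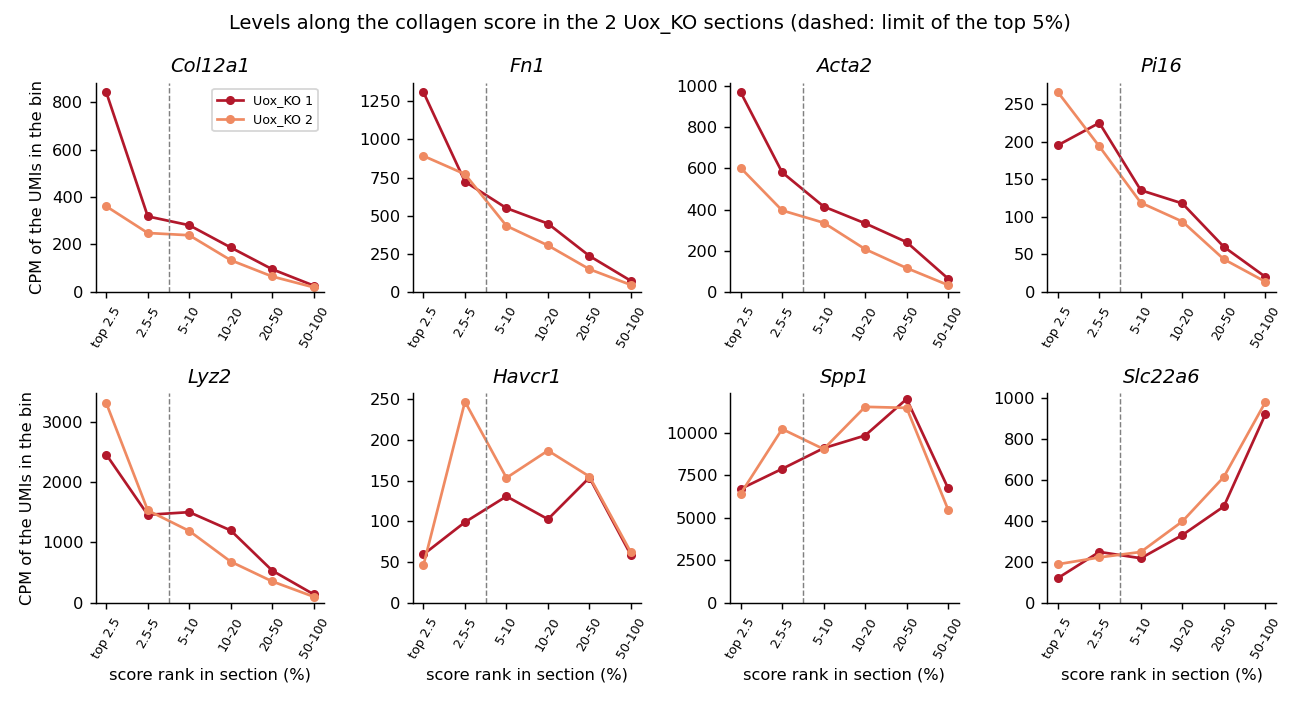
Level of 8 genes (y axes, CPM of the UMIs in the bin, from 0) along the rank of spots by collagen score (x axes, percent, highest scores at the left) in the 2 Uox_KO sections, with a dashed line at the limit of the top 5%. Col12a1, Fn1, Acta2, Pi16 and Lyz2 are lowest in the lower 50%, Slc22a6 is highest there, and Spp1 and Havcr1 reach their highest level in bins between the ends.

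Among called genes averaging at least 10 CPM, the largest rises were in secreted and matrix genes. Fndc1, a fibronectin domain protein whose promoter is shown above, had 149 and 40.5 CPM in collagen-rich spots, against 16.8 and 6.76 CPM in the others (2.92 ± 0.15). It was found in 83 of 132 and 49 of 129 collagen-rich spots, against 496 of 2518 and 297 of 2461 other spots. The other 9 were Mfap5, Sfrp4, Inhba, Mmp12, Sulf1, Fmod, Fbln2, Tnc and Pdgfrl, at log2 fold changes of 2.54 to 2.90. The largest falls were of 2 kinds. Thermogenic and lipid genes of fat were one: Ucp1, the uncoupling protein of brown fat, had 18.5 and 25.5 CPM, against 202 and 277 CPM in the other spots (-3.44 ± 0.11), followed by Cidea, Thrsp and Cox8b, with the apolipoprotein gene Apoc1 at -2.84. In all, 11 of 12 fat markers fell (median -2.77), with 0 and 1 collagen-rich spots in the top 5% of the fat score. Without spots high in fat, urothelium or smooth muscle scores, 0 of the 10 fat markers still tested were called lower (median 0.03), Ucp1 was at -0.30, Cox8b turned to 0.36 and Apoc1 was no longer called (-0.13, edgeR adjusted p = 0.826). The other kind was proximal tubule metabolism, with Slc22a22 at 5.70 and 6.88 CPM in collagen-rich spots, against 47.9 and 52.1 CPM, and Cyp2a5, Cyp2a4 and Nat8f6, whose reads may be shared with near-identical paralogs. BC024386, also lower, completes the 10.

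Whether collagen-rich spots differ from their section in the same way in both genotypes was tested as the difference of the 2 contrasts, each top 5% against its own other spots. Over 15955 genes, 730 (4.58%) had a more positive contrast in Uox_KO and 2308 (14.5%) a more negative one. The macrophage list was on the positive side, with 8 of 20 more positive and 0 more negative, and all 22 respiration genes were more negative. Of the other collagens 9 of 22 were more positive, Col12a1 and Col5a2 among them (1.28 and 1.42), and 4 more negative. Further matrix lists were mixed. Of 15 elastic fibre and microfibril genes 3 were more positive and 5 more negative, and of 9 proteoglycans 1 and 3. The counts were 2 and 2 of 19 glycoproteins, 4 and 1 of 22 processing enzymes and 3 and 4 of 24 proteases and inhibitors. Acta2 rose in the collagen-rich spots of Uox_KO (2.09) but less than in the Control top 5%, with a difference of -1.29 (edgeR adjusted p = 5.55e-17). Mfap5 and Fmod also rose less than in the Control top 5% (differences -1.01 and -0.96). Of 12 endothelial genes 0 were more positive and 10 more negative. Of 15 injured tubule genes 1 was more positive and 8 more negative (median -0.49). Called genes averaging at least 10 CPM over the sums compared, with groups that do not overlap, were then ranked. The largest positive differences among them were in Clec4n, Frzb, Mmp12, Mgl2, Ighm and Ccl6. Clec4n had 1 UMI in each Control top 5% sum, and it lost its call without either Control section. Its call was also lost with DESeq2 (DESeq2 adjusted p = 0.105), with the top 2.5% of spots (edgeR adjusted p = 0.263) and within depth classes (0.066). Without the fat, urothelium and smooth muscle spots both Clec4n (edgeR adjusted p = 0.128) and Mmp12 (0.278) lost their calls. Frzb had 159 and 99.6 CPM in Uox_KO collagen-rich spots and 47.2 and 35.3 CPM in other Uox_KO spots, while in Control it had 15.2 and 15.6 CPM in the top 5% and 26.5 and 24.8 CPM in the other spots. Its contrast was thus positive in both Uox_KO sections and negative in both Control sections (difference 2.36 ± 0.15). Mgl2, a lectin of macrophages and dendritic cells, had 58.4 and 49.4 CPM in collagen-rich Uox_KO spots, against 3.12 and 2.23 CPM in the Control top 5% (difference of contrasts 1.94 ± 0.34).

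Set directly against the top 5% of Control, collagen-rich spots of Uox_KO were higher for 3341 of 12206 genes tested (27.4%) and lower for 3279 (26.9%), in an edgeR test of 2 against 2 sections. This contrast holds the genotype as well as the choice of spots, and the 2 cannot be told apart in it. The other spots of the 2 genotypes differed in the same direction for Havcr1, Pvalb and Egf, named below. There Havcr1 had 93.0 and 106 CPM in Uox_KO, against 0.36 and 0.35 CPM in Control. Pvalb had 0.16 and 0.43 CPM, against 90.7 and 105 CPM, and Egf 110 and 130 CPM, against 833 and 895 CPM. All 20 macrophage markers, all 17 tested glycoproteins and 16 of 20 tested other collagens were higher. Timp1 had 425 and 405 CPM in Uox_KO collagen-rich spots, against 3.12 and 1.67 CPM in the Control top 5% (scaled over all 8 sums). Endothelial markers were lower for 10 of 12 and higher for 1. Havcr1 had 130 and 278 UMIs in the collagen-rich spots of Uox_KO 1 and 2, against 0 UMIs in either Control top 5%, at least 193-fold higher against 3 counts over the group, on the scale of the fit. Slc14a2 was at least 92.7-fold higher, resting mainly on Uox_KO 1 (172 UMIs, and 24 in Uox_KO 2). Sprr1a was at least 52.5-fold higher, Inhba at least 50.6-fold, Ccr1 at least 39.2-fold and Mmp7 at least 37.8-fold, and these genes too had 0 UMIs in both Control sums. They therefore entered the test through their Uox_KO counts alone. Within Uox_KO, Sprr1a was lower in collagen-rich spots, at 35.6 and 14.6 CPM, against 52.5 and 47.5 CPM in the other spots (-1.04). In the other direction, Pvalb, a distal tubule protein, had 0 UMIs in both Uox_KO sums, against 264 and 337 in Control, at least 141-fold lower. Dnase1, Egf and Slc34a3 stood at log2 fold changes of -5.41, -5.46 and -6.13, and Hba-a1 and Ces1g, which have near-identical paralogs, at -5.52 and -5.77. Slc34a3 had only 2 and 0 UMIs in the Uox_KO sums and Ces1g 1 and 2 UMIs, so their folds rest on counts at or below 3. Haemoglobin genes summed with Alas2 to 135 and 587 CPM in Uox_KO collagen-rich spots, against 14050 and 11202 CPM in the Control top 5%, and the part of blood in the other differences between genotypes was not tested.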

How the data were processed

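Visium libraries of 4 kidney sections were read as the deposited UMI counts per gene and spot (32285 genes), which per the submitters' processing notes come from Space Ranger 1.3.1 and mm10. The counts are raw whole numbers. UMIs were summed per section over collagen-rich spots and over all others, which gave 8 sums of 1633782 to 104318294 UMIs. Sections, not spots, were the replicates (n = 2 per genotype). edgeR 4.0.16 in R 4.3.3 (filterByExpr, TMM, quasi-likelihood F test, Benjamini-Hochberg adjustment, threshold 0.05) was fitted to the 8 sums with section as a term, or to the 4 top 5% sums for Uox_KO against Control. CPM use TMM-scaled sums, except in the score bins and for the 4 genes of the score, which are plain CPM. The 42 lists hold 539 genes. The spots, lists and tests were chosen with earlier results of these data known. Within sections and for the difference of contrasts, p-values measure how the contrast of spot classes varied between sections of a genotype. That spread is pooled over both genotypes and drawn toward the trend over all genes. For Uox_KO against Control, p-values measure the spread between 2 mice per genotype. All rest on few residual degrees of freedom. Values after ± are standard errors of the fit, derived from the F statistic, and not the spread of the 2 sections.

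Genes were named by rule: the 10 largest rises and 10 largest falls among called genes that average 10 CPM or more and move the same way in both sections, predicted and mitochondrially encoded genes being counted and not named. Up to 4 genes of smallest p in each list were added, and any member of the matrix, TGF-beta and fibroblast lists. For the comparisons with Control the 6 largest differences each way were taken, with groups that do not overlap. The alternatives were RLE scaling, DESeq2 1.42.0, no filter, other shares of spots, a score without the log, choice within depth classes, removal of fat, urothelium and smooth muscle spots, removal of mitochondrially encoded genes, other blocking, and leaving out each section. The script was tested on simulated data.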

Additional observations from a re-analysis of the deposited data

Results flagged for a closer look

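The contrast of top 5% against other spots differed between Uox_KO and Control, by the edgeR test of the difference, in 730 genes with a more positive and 2308 with a more negative contrast in Uox_KO. Differences are on the log2 scale, Uox_KO minus Control, with 2 sections in each genotype.

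Among called genes averaging at least 10 CPM over the sums compared and with groups that do not overlap, the 6 with the largest positive differences were genes of myeloid and B cells and the secreted Wnt antagonist Frzb. The differences were 2.56 for Clec4n, 2.36 for Frzb, 2.08 for Mmp12, 1.94 for Mgl2, 1.86 for Ighm and 1.83 for Ccl6. Clec4n, a lectin of macrophages, had 50.3 and 35.2 CPM in collagen-rich Uox_KO spots and 11.5 and 6.28 CPM in the other Uox_KO spots, against 0.346 and 0.279 CPM in the Control top 5% and 0.411 and 0.343 CPM in the other Control spots. Its Control top 5% values rest on 1 UMI per section, and its call was lost in several of the alternatives.

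By the same limits, the 6 largest negative differences were in fat genes: -4.40 for Cidec, -4.58 for Adipoq, -5.04 for Plin1, -5.05 for Cox8b, -5.33 for Cidea and -5.48 for Ucp1. Without the fat, urothelium and smooth muscle spots none of these 6 differences was called. Ucp1 had 18.5 and 25.5 CPM in collagen-rich Uox_KO spots and 202 and 277 CPM in the other Uox_KO spots, against 0 and 18.1 CPM in the Control top 5% and 0 and 4.41 CPM in the other Control spots. So Ucp1 was listed at 0 throughout Control 1, and the Control contrast came from Control 2 alone. Without Control 2 its difference was -3.45 and was not called.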

How the results depend on the processing

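Over 62 genes tracked through the alternatives within Uox_KO, 965 of 992 values kept their direction and their call. These genes were chosen from the same data, partly for their large called changes, so that share does not measure how stable other genes are. Over all genes tested, those called higher within Uox_KO numbered 3849 in the main fit and 2586 with DESeq2. Fewer genes were called higher with fewer sections. Leaving out 1 section gave 2299 to 3581 higher genes within Uox_KO, the lowest without Uox_KO 2, and 290 to 627 with a more positive contrast in Uox_KO than in Control, where the whole data gave 730. That count was 304 with DESeq2, 432 with the top 2.5% of spots and 369 without fat, urothelium and smooth muscle spots. DESeq2 gave 1409 genes with a more negative contrast and 2197 higher in Uox_KO collagen-rich spots than in the Control top 5%.

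Without the fat, urothelium and smooth muscle spots, Cox8b within Uox_KO turned to 0.36, and to 0.10 with spots chosen again. In the difference between genotypes Cidec turned to 0.14 and 0.21 in those settings, Cox8b to 6.45 and 0.91, and Plin1 to 0.015 and Cidea to 5.34 in the first of them. None of these values was called (edgeR adjusted p = 0.495 for Cox8b and 0.661 for Cidea in the first setting). Adipoq and Ucp1 kept their direction, at -0.27 and -0.30 in the first setting, and were not called in either. Leaving out 1 section moved the Cox8b difference between -5.16 and 2.11, the higher value without Control 2. Havcr1 within Uox_KO turned to 0.28 with a score without the log, to 1.12 within depth classes and to 0.24 with spots chosen again, and was at -1.36 with the top 2.5% of spots. It ranged from -0.67 without Uox_KO 2 to 0.047 without Uox_KO 1. Within depth classes Spp1 turned to 0.20 and Pecam1 to -0.086. The causes were not tested.

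Without the replicate block (section term), 3631 genes were higher and 3430 lower within Uox_KO. With the replicate number as a replicate block between genotypes, 3421 were higher and 3355 lower; the deviations of same-numbered sections had a correlation of 0.0028 over 12206 genes, so the numbers were not taken to pair mice.

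The 2 sections per genotype, the unknown positions of spots and depths of 10742 and 10369 UMIs per collagen-rich spot limit what can be told.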

Other observations

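Some genes had unlike values in the 2 comparisons of collagen-rich spots. Timp1, an inhibitor of matrix metalloproteinases, rose by 2.14 on the log2 scale against the other Uox_KO spots and by 7.46 against the Control top 5%, while Serpinh1, the collagen chaperone, rose by 1.20 and by 2.23. Renin (Ren1), the protease that starts the angiotensin cascade, had 19.0 and 11.3 CPM in collagen-rich spots of Uox_KO, against 717 and 330 CPM in the Control top 5%. Against the other Uox_KO spots it differed by 0.72 on the log2 scale, and that call was lost within depth classes, without the section term, without Uox_KO 1 and without the fat, urothelium and smooth muscle spots. Agt, the renin substrate, was lower in collagen-rich spots than in the other Uox_KO spots, with 65.0 and 41.3 CPM, against 204 and 139 CPM.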
